A study of Mus musculus with 6 samples.

Results

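Among the stromal cells of the mouse bladder mucosa, one set was defined by transcripts of Inmt, Sct and Ass1. These cells, called C cells here, were picked from raw counts of unique molecular identifiers (UMIs, tags that mark single captured mRNA molecules) in every cell with over 500 detected genes. A cell entered the stromal gate with at least 10 UMIs of Col1a1, Col1a2, Col3a1 and Dcn together, with more of these UMIs than of 6 keratins and than of 3 muscle genes, with no UMI of Ptprc or Pecam1, and with at most 2 UMIs of 4 cycling genes. It was a C cell where Inmt, Sct and Ass1 summed to at least 2 UMIs and to more than each of 3 other sums, which were Pi16 and Mfap5 (A cells), Has1, Scara5 and Bglap2 (B cells), and Car3, Cxcl14 and Rbp4 (D cells). The rule found 400 C cells among 55399 cells with over 500 genes, and among 11421 cells in the stromal gate. The gate also held 3498 A cells, 1152 B cells, 5705 D cells and 666 cells of no class.

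The study compared healthy bladders with bladders injured by CPP in wild type C57BL/6 mice that were 8 weeks old. The mucosal layer was profiled in 6 droplet-based libraries, 2 of them from healthy mice. Another 2 came from mice 48 h after a CPP injection (acute) and 2 from mice given 4 rounds of CPP over 11 days (chronic). By the paper's methods the chronic bladders were also taken 48 h after the last injection. Each chronic injection held a lower dose per body weight than the acute one, so the arms differ in dose as well as in rounds. The labels call the libraries biological replicates but do not say how many animals each one pooled, so p-values measure only the spread between libraries. The paper states that each group held males and females and that the samples were handled in batches. The labels assign neither sex nor batch to a library, so differences between libraries can also hold these. The C cells numbered 17 and 77 in the healthy libraries, 14 and 223 in the acute libraries, and 67 and 2 in the chronic libraries. Chronic replicate 2, with its 2 cells, gave no expression value for C, so chronic values rest on 1 library of 67 cells.

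Fibroblasts of the mucosa lie under the urothelium, where they build the extracellular matrix and release growth factors and chemokines that reach the epithelium. Inmt is indolethylamine N-methyltransferase, which puts methyl groups on tryptamine and related amines. Sct encodes secretin, a peptide hormone best known from the gut, and Ass1 is argininosuccinate synthase, which renews arginine from citrulline. CPP stands for cyclophosphamide, a drug that yields a metabolite that reaches the urine and damages the bladder lining.

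The libraries held 54604109 to 111985678 UMIs, and the tables listed 15065 to 20180 genes. The shallowest cell kept had 781 UMIs in acute replicate 2 and 3826 in acute replicate 1, so the tables did not start at one depth. Median UMIs per C cell were 3792 and 3099 in the healthy, 4548.5 and 2898 in the acute, and 2391 and 5455.5 in the chronic libraries. Between 36 and 229 cell barcodes were shared by any pair of libraries. Doublet calling marked 4.28% to 11.1% of the cells of a library, and 24 of the 400 C cells, which stayed in because the rule does not remove them.

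The label names 3 genes, but Inmt carried most of it. Of the 2808 UMIs that made up the C sums, 2504 were Inmt, 110 Sct and 194 Ass1. Inmt was seen in 391 C cells, Sct in 68 and Ass1 in 129, while 227 cells had Inmt alone and 9 had none. The median sum was 6 UMIs and the highest 46. Inmt lies on chromosome 6 (chr6:55170626-55175043, GRCm38, minus strand), Sct on chromosome 7 (chr7:141278330-141279133, minus strand) and Ass1 on chromosome 2 (chr2:31470207-31520672, plus strand), and the counts cover exons of these protein-coding genes without resolving which.

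Levels are given in CPM, for which UMIs were summed over the cells of a class in a library and scaled to a common total after TMM normalization, which evens out differences in composition. The levels of the rule's genes describe the cells chosen and carry no test. Inmt stood in C at 2464 and 2923 CPM in the healthy libraries, 922 and 2995 in the acute and 2683 in the chronic. No other class reached these levels in any library: the highest Inmt value was 562 CPM in A, 457 in B and 389 in D. Sct measured 31.2 and 29.5 CPM in healthy C, 256 and 154 in acute C and 93.5 in chronic C. Those healthy levels rest on 2 and 5 UMIs. The highest Sct level outside C was 58.9 CPM, in the B cells of acute replicate 2, and lay above healthy C.

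Ass1 set C apart least. In C it was 31.2 and 17.7 CPM in the healthy libraries, 68.3 and 327 in the acute and 201 in the chronic. The A cells of the same libraries had 14.5, 21.4, 76.4, 181 and 119 CPM, so C and A overlapped, and in acute replicate 1 and healthy replicate 2 A was the higher. Pooled over libraries, a UMI of Ass1 was found in 32.3% of C cells, 12.7% of A, 19.2% of B and 7.68% of D cells. Acute replicate 2, where Ass1 was highest in C and A, weighed unequally on these shares. It gave 223 of 400 C, 585 of 3498 A, 311 of 1152 B and 3841 of 5705 D cells. Urothelial cells, with median depths of 6451.5 to 12044 UMIs per library, had one in 18.4% of cells, against 3.34% for Inmt and 0.396% for Sct. The share of C cells with Ass1 was 5.88% and 3.90% in the healthy libraries, 21.4% and 45.3% in the acute, and 29.9% in chronic replicate 1. Over the same libraries the share of urothelial cells with Ass1 was 12.7%, 9.68%, 19.5%, 31.4% and 16.9%. Inmt gave 97.5% and 98.4% of the C sum in the healthy libraries, but 74.0%, 86.2% and 90.1% in the acute libraries and chronic replicate 1. In acute replicate 1 Sct held 20.5% of the sum and Ass1 5.48%, and in acute replicate 2 they held 4.43% and 9.41%. The Sct share of acute replicate 1 was 15 UMIs in 5 cells, 6 of them in 1 cell. Sct and Ass1 thus held a larger share of the C sum in these injured libraries than in the healthy ones. Cells could enter C through these genes: 3 of 14 C cells of acute replicate 1 had no Inmt, and 0 in either healthy library. The shares describe the cells chosen and cannot show a change in them.

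**Figure D1:**
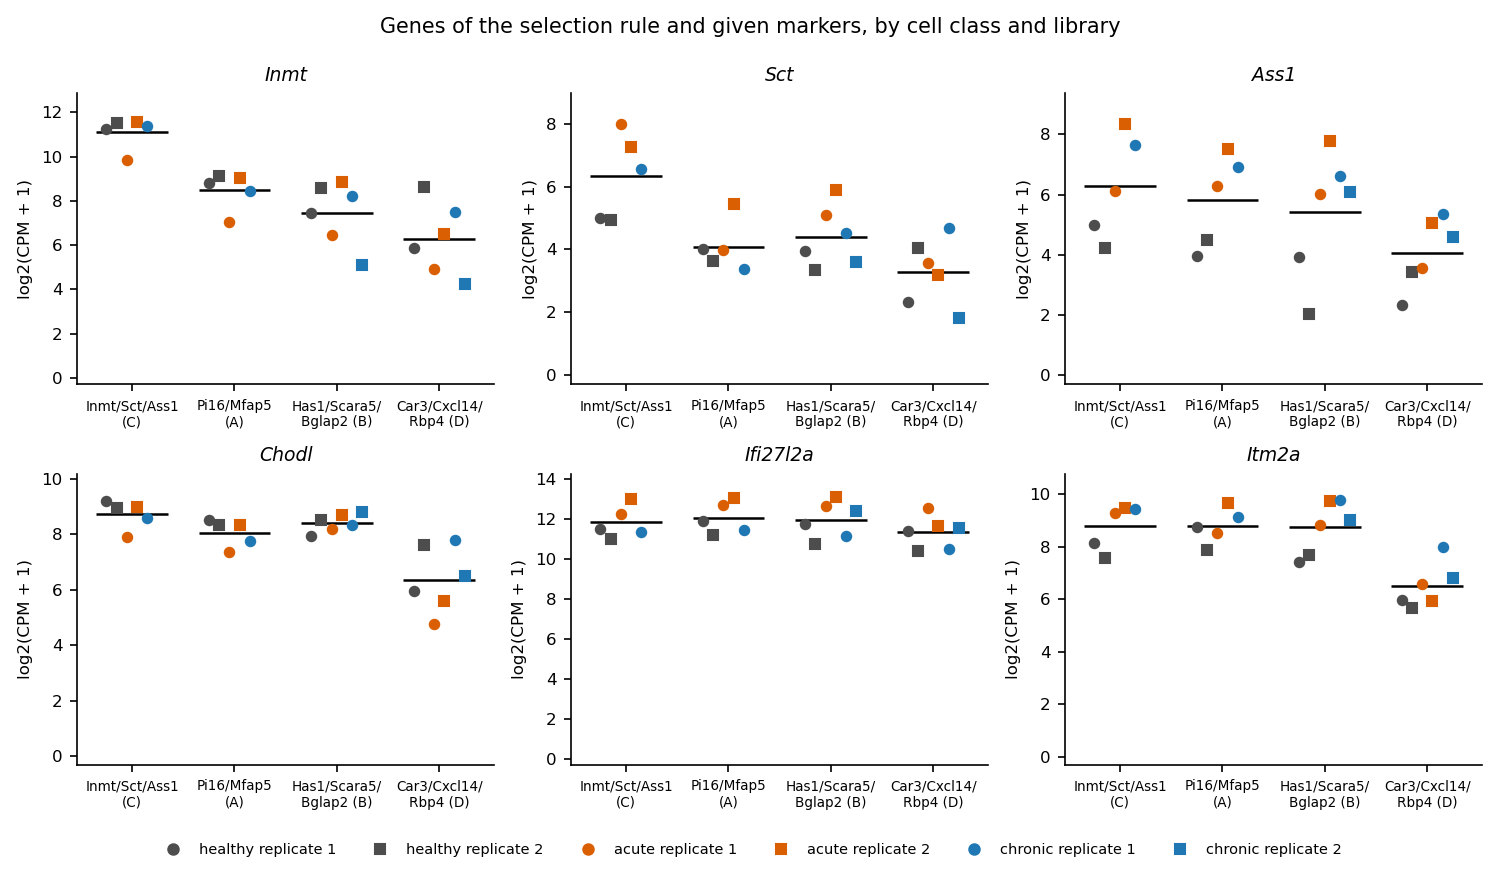
The 3 genes of the C sum and 3 further markers given for these cells, as log2(CPM + 1) of UMIs summed per class and library. Each point is 1 library (colour for condition, shape for replicate) and bars are means over libraries. Inmt is higher in C than in A, B and D in each library, whereas the ranges of Ass1, Chodl, Ifi27l2a and Itm2a overlap between C, A and B.

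Of the 3 further markers, Chodl, which encodes chondrolectin, was at 442 ± 136 CPM in C (SD, n = 5 libraries), 278 ± 83.3 in A, 346 ± 75.2 in B and 107 ± 82.3 in D. Itm2a, an integral membrane protein, averaged 497 CPM in C, 480 in A, 515 in B and 106 in D. Ifi27l2a, an interferon-inducible gene, averaged 4085 CPM in C, 4770 in A, 4598 in B and 2927 in D. Itm2a was thus lower in D and alike in mean between C, A and B, and the ranges of Ifi27l2a overlapped among all 4 classes.

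Close to the threshold, 28 cells entered with a C sum of exactly 2 and carried 1.36 Inmt and 0.536 Ass1 UMIs per cell. Just outside, 8 cells had a C sum of 1 that was still the largest, with 0.875 Inmt UMIs per cell. A further 161 cells tied with another sum, and 1908 cells with a C sum of at least 2 had a larger A, B or D sum. In 129 of the 400 C cells the C sum led by 1 UMI. A UMI of Inmt was also present in 44.3% of A, 35.8% of B and 17.4% of D cells, pooled over libraries.

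The C cells carried general fibroblast transcripts. Pdgfra, the receptor that marks many fibroblasts, was at 157 ± 55.7 CPM in C, 140 ± 34.7 in A, 126 ± 33.3 in B and 170 ± 56.5 in D. Vim, an intermediate filament gene of mesenchymal cells, was at 1456 ± 306 CPM in C and 1230 ± 303 in D. Cd34 was seen in 56.8% of C cells, against 77.3% of A, 68.8% of B and 11.4% of D cells, pooled over libraries. Endothelial, lymphocyte and Schwann cell markers were near 0: the summed level was 0 to 29.5 CPM for 9 listed endothelial genes, 0 to 11.8 for 4 lymphocyte genes, and 0 to 21.6 for 5 Schwann cell genes. The gate set Pecam1, one of the endothelial genes, to 0 and removed cells with Ptprc, so the first 2 sums were in part fixed by the rule. The 16 urothelial markers summed to 6067, 10004, 3741, 6123 and 10925 CPM, in the order of the libraries, and the keratins among them were capped by the gate. Macrophage and dendritic markers summed to 93.6, 254, 68.3, 778 and 2208 CPM with Ptprc at 0 by the rule, and the cells behind the higher values are described with the injury results. Mural and smooth muscle markers summed to 50.3 to 179 CPM, the 1 listed mesothelial marker to 42.2 to 129 and proliferation markers to 31.2 to 73.8, where the gate limited Myh11 and the cycling genes.

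C cells made up 0.845% and 4.10% of the A to D cells of the healthy libraries (95% Wilson intervals 0.528 to 1.35% and 3.29 to 5.10%). In the acute libraries they made up 2.86% (1.71 to 4.75%) and 4.496% (3.95 to 5.11%), and in the chronic libraries 5.25% (4.16 to 6.61%) and 1.41% (0.387 to 4.99%). Among cells over 3826 UMIs, the highest of the minimum depths, which left 2 to 47 C cells per library, the shares were 0.457% and 2.23% in the healthy, 2.86% and 1.52% in the acute and 2.40% and 1.85% in the chronic libraries, so the order within the acute pair turned. The intervals hold counting error alone, and those of the healthy pair did not overlap. The mean share was 2.47 ± 2.30% (SD, n = 2) in healthy, 3.68 ± 1.16% in acute and 3.33 ± 2.72% in chronic bladders. Acute and healthy differed by 1.21 percentage points (exact permutation test over libraries, two-sided, p = 0.6667), and chronic and healthy by 0.856 points (exact permutation p = 0.6667). With 2 libraries against 2 this test cannot go below 0.3333. The acute difference turned to −0.423 points without healthy replicate 1, and the chronic one to −0.773 without healthy replicate 1 and −1.07 without chronic replicate 1. No change in the share of C cells could be shown with these libraries.

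**Figure D2:**
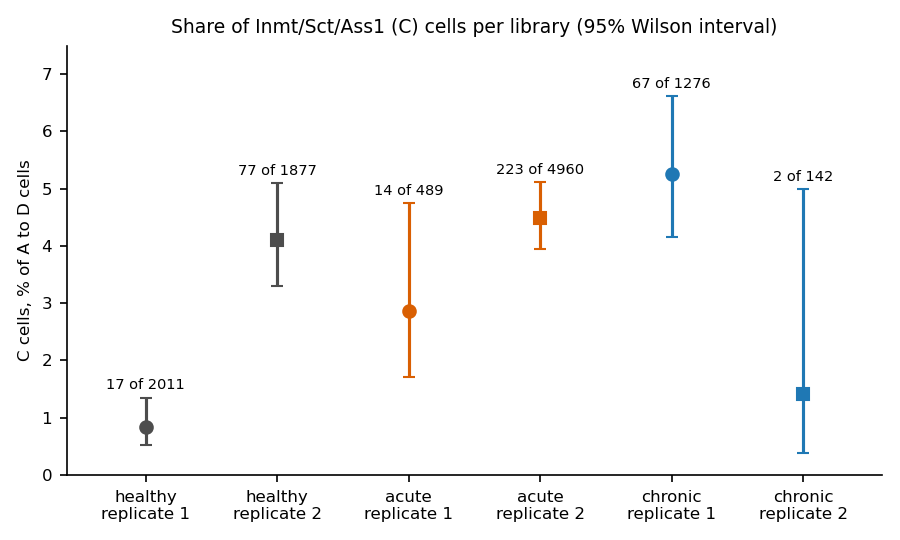
C cells as a percentage of A to D cells in each library, with 95% Wilson intervals and the cell numbers above. The healthy pair spans 0.845% to 4.10% and the chronic pair 1.41% to 5.25%, so the conditions overlap.

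To ask how C cells differ from the other classes beyond the genes that chose them, UMIs were summed per library and class and compared within libraries by edgeR's quasi-likelihood test over 7695 genes, leaving out the rule's genes. Genes that vary together with a class sum can still differ because cells were picked on that sum. Against A, 68 genes passed an adjusted p below 0.05 (0.884% of those tested), 7 higher (0.091%) and 61 lower (0.793%) in C. Against B it was 42 genes (0.546%), 11 higher (0.143%) and 31 lower (0.403%), and against D 882 genes (11.5%), 303 higher (3.94%) and 579 lower (7.52%). At an unadjusted p below 0.05 the counts were 831 (10.8%), 731 (9.5%) and 1723 (22.4%). Only 5 genes (0.065%) differed from all 3 classes in the same direction, and each was lower in C. They were Fn1, Col5a2, Meg3, Tmsb10 and Actg1.

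Fn1 encodes fibronectin, a glycoprotein that links cells to the matrix. It measured 172 and 278 CPM in healthy C, 102.5 and 188 in acute C and 309 in chronic C. The lowest value in any A library was 391 CPM, in any B library 316 and in any D library 527, so the C libraries lay below A, B and D without overlap. The log2 differences were −1.20 ± 0.18 (SE) from A, −0.88 ± 0.18 from B and −1.64 ± 0.17 from D, with edgeR adjusted p of 0.00013, 0.012 and 1.2e-08. The difference from B missed the threshold without healthy replicate 1 (−0.78) or acute replicate 1 (−0.76), and those from A and D held in all 14 alternatives tried.

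Col5a2, a chain of the collagen that starts fibrils, was at 218, 142, 120, 122 and 158 CPM in the C libraries in the same order. It averaged 313 ± 80.2 CPM in A, 265 ± 56.1 in B and 466 ± 75.3 in D, and neither A nor D overlapped with C. Its log2 differences were −1.05 ± 0.16, −0.86 ± 0.17 and −1.69 ± 0.16, with edgeR adjusted p of 0.00018, 0.0066 and 7.5e-10. Without healthy replicate 2 the difference from B was −0.81 and missed the threshold.

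Tmsb10 (thymosin beta 10, which binds actin monomers) averaged 2825 ± 909 CPM in C, against 4410 in A, 4388 in B and 5752 in D. Actg1, a cytoplasmic actin, was at 1794 to 2187 CPM in C and at 2355 or more in every A, B and D library, with log2 differences between −0.45 and −0.47. Meg3, a maternally expressed noncoding RNA, averaged 380 ± 218 CPM in C and 785 in A. Tmsb10 against A and D, Actg1 against D and Meg3 against A passed in each left-out fit, whereas the other differences of these 3 genes missed the threshold in some left-out fits, where they kept their direction. Tmsb10 against B missed the threshold without healthy replicate 1 (−0.39), acute replicate 1 (−0.40), acute replicate 2 (−0.54) or chronic replicate 1 (−0.53). Actg1 against A and B missed it without healthy replicate 1 (−0.38 and −0.35), healthy replicate 2 (−0.49 and −0.465), acute replicate 1 (−0.48 and −0.46) or chronic replicate 1 (−0.501 and −0.49). Meg3 against B passed in 3 of 14 alternatives and was lost without each library but acute replicate 2 (−0.67 to −0.81), and against D it was lost without healthy replicate 2 (−0.62).

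Some matrix genes were lower in C than in A, where 0.793% of all genes tested were lower and 0.091% higher. Of 19 proteases and inhibitors tested, 6 fell below A (Adamts2, Adamts5, Htra3, Loxl1, Timp2 and Timp3) and none rose, with a median log2 difference of −0.49 against −0.12 over all genes tested. Of 29 proteoglycans and matrix glycoproteins, 3 were lower (Fbn1, Fn1 and Lum; median −0.32). Among 14 collagens Col5a2 and Col8a1 were lower, and the difference was negative for all 14 (median −0.39). Lum missed the threshold without healthy replicate 1 (−0.68), healthy replicate 2 (−0.88) or acute replicate 1 (−0.67), and Adamts2, Adamts5, Timp2 and Timp3 each without 2 to 4 of the libraries. Fbn1, the main microfibril protein fibrillin 1, was at 169 ± 44.4 CPM in C, 375 ± 100 in A and 298 ± 75.04 in B. Its log2 differences were −1.18 ± 0.14 from A (edgeR adjusted p = 5.8e-06) and −0.94 ± 0.15 from B (edgeR adjusted p = 0.00049), and from D it was 0.37 ± 0.16 (edgeR adjusted p = 0.15).

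Cd34, Cd248 and Clec3b, from the list of general and adventitial fibroblast genes, were lower in C than in A and higher than in D. Cd34, a sialomucin of fibroblasts and vessels, ranged from 405.5 to 666 CPM in C, from 649 to 963 in A and from 15.3 to 122 in D. It differed from A by −0.70 ± 0.17 (edgeR adjusted p = 0.032) and from D by 3.02 ± 0.20 (edgeR adjusted p = 3.3e-13). Clec3b, which encodes tetranectin, differed by −0.83 ± 0.16 from A and by 3.65 ± 0.18 from D, and Cd248 (endosialin) by −0.72 ± 0.17 and 0.83 ± 0.18. The differences from A of Cd34 and Cd248 missed the threshold without healthy replicate 1 (−0.65 and −0.63) or chronic replicate 1 (−0.701 and −0.82), and that of Cd248 from D without acute replicate 2 (0.603). In all, 3 of 13 genes of that list were lower than in A, and 6 were higher and 1 lower than in D. Of all genes tested, 0.793% were lower than in A, and 3.94% were higher and 7.52% lower than in D. Of the 6 list genes higher than in D, Ly6c1 (0.67) was lost without healthy replicate 2 (0.66), acute replicate 2 (0.41), chronic replicate 1 (0.55) or chronic replicate 2 (0.62).

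Stmn2 and Tppp3, both tied to microtubules and named after their values were seen, followed the same order, Stmn2 with a larger step from A. Stmn2 had no UMI in C of healthy replicate 1, and 82.7, 68.3, 84.4 and 324 CPM in the other C libraries. It was at 217 to 804 CPM in A and at 2.22 to 29.9 in D, so the ranges of C and A overlapped. The log2 differences were −2.27 ± 0.30 from A, −1.99 ± 0.31 from B and 3.15 ± 0.41 from D. Tppp3 was at 82.7 to 187 CPM in C, 320 to 416 in A and 10.2 to 39.8 in D, with no overlap between these 3 classes.

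Among genes higher in C, Mdk was the 1 of 15 tested urothelial niche ligands that edgeR called against A and against B, where 5 and 3 had an unadjusted p below 0.05 and DESeq2 called 3 and 1. Mdk encodes midkine, a heparin-binding growth factor. It stood at 125 and 148 CPM in healthy C, 171 and 291 in acute C and 137 in chronic C. In A of the same libraries it was at 91.2, 76.9, 59.8, 132 and 75.9 CPM, lower than C in each library. The differences were 0.99 ± 0.15 from A, 1.09 ± 0.16 from B and −1.22 ± 0.14 from D, with edgeR adjusted p of 0.00015, 0.00021 and 4e-08. C therefore lay between the fibroblasts of A and B and the D cells in Mdk.

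The other genes above A were Gdf15, Cck, Spon1, Pde12, Fam105a and Tceal3, and all but Gdf15 were named after their values were seen. Cck, which encodes the peptide cholecystokinin, averaged 183 ± 78.1 CPM in C and 97.8 ± 95.6 in A (log2 difference 1.25 ± 0.29, edgeR adjusted p = 0.023). Spon1, an extracellular matrix protein of the spondin family, averaged 120 ± 82.1 CPM in C, 41.9 ± 40.9 in A and 512 ± 184 in D. These were weak calls. Cck missed the threshold without healthy replicate 2 (1.26), acute replicate 1 (1.18), acute replicate 2 (1.14) or chronic replicate 1 (0.978), Spon1 without healthy replicate 1 (1.51), healthy replicate 2 (0.999), acute replicate 1 (1.23) or chronic replicate 1 (1.33), and Gdf15 without acute replicate 1 (1.64), acute replicate 2 (1.60) or chronic replicate 1 (1.61). Pde12, Fam105a and Tceal3 each missed it without 3 or 4 of the libraries.

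Against B, C was higher in Mfap4, Serpinf1, Cxcl12, Tagln and Myl9 among the listed genes. Cxcl12, a chemokine that guides leukocytes and vessels, was at 842 and 413 CPM in healthy C, 154 and 236 in acute C and 302 in chronic C. It was at 119 to 201 CPM in B, and only acute replicate 1 of C lay within that range. The log2 difference was 1.23 ± 0.21 from B (edgeR adjusted p = 0.0014), 1.48 ± 0.20 from D (edgeR adjusted p = 1.4e-06) and 0.68 ± 0.19 from A (edgeR adjusted p = 0.093). Spon2 and Apod, named after their values were seen, also passed against B, at 1.41 ± 0.21 and 1.71 ± 0.37. Mfap4 and Tagln missed the threshold without healthy replicate 2 (2.49 and 0.962), Tagln also without chronic replicate 1 (1.38), and Serpinf1 without healthy replicate 1 (0.802). Apod missed it without healthy replicate 1 (1.57), healthy replicate 2 (1.52) or chronic replicate 1 (1.82), and Myl9 without 4 of the libraries, whereas Cxcl12, Spon2 and Mdk passed in each left-out fit. Bglap and Bglap3 were lower, but they are near-identical to Bglap2, which is part of the B sum.

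**Figure D3:**
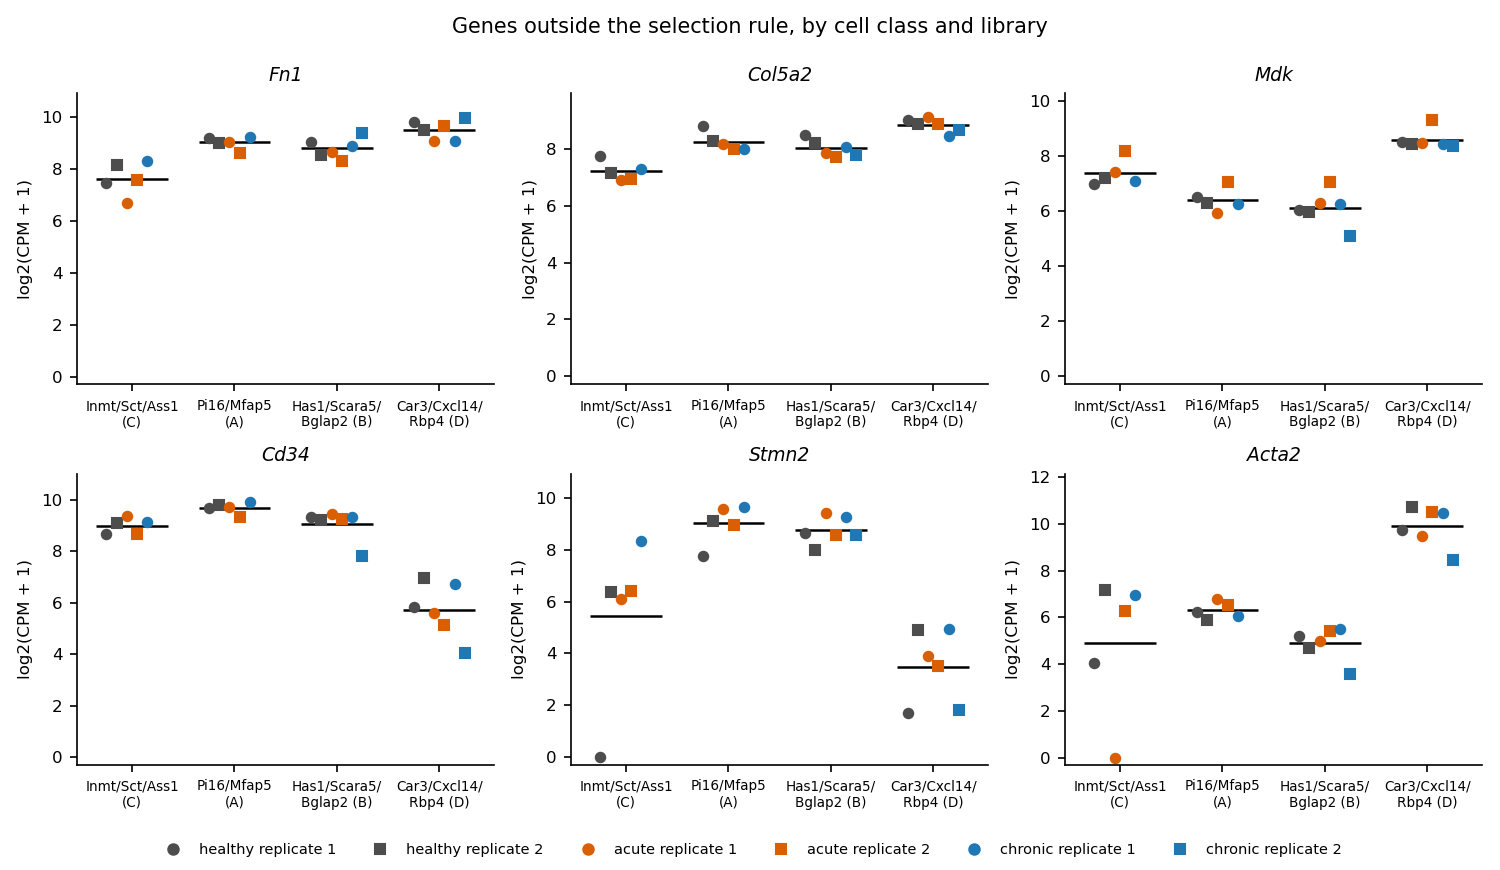
Genes that the selection rule did not use, as log2(CPM + 1) of UMIs summed per class and library, with 1 point per library and bars for the means. Fn1 and Col5a2 are lowest on average in C, the mean levels of Mdk and Cd34 in C lie between those of the other classes, and Acta2 separates D from A, B and C.

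Contractile genes and several niche ligands were lower in C than in D, where 7.52% of all genes tested were lower and 3.94% higher. All 10 contractile genes tested were lower by edgeR (median −2.88, against −0.09 over all genes), and DESeq2 called 9. The Smtn call (−0.87) was lost without acute replicate 2 (−0.77) or healthy replicate 2 (−0.76). Acta2, smooth muscle actin, was at 15.6 and 142 CPM in healthy C, 0 and 75.9 in acute C and 122 in chronic C, and at 347 to 1670 CPM in D. Its log2 difference was −3.90 ± 0.26 (edgeR adjusted p = 8.8e-13), and against A it was 0.04 ± 0.31 (edgeR adjusted p = 1). Of 15 niche ligands, 7 were lower in C than in D (Bdnf, Bmp2, Bmp5, Bmp7, Mdk, Ptn and Wnt4; median −0.78) and none was higher. Bmp5, a bone morphogenetic protein, averaged 41.4 ± 23.5 CPM in C and 296 ± 92.1 in D (−2.53 ± 0.25, edgeR adjusted p = 3.9e-09).

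Of 16 growth factor antagonists and Hedgehog targets, 9 were lower in C than in D and 3 were higher. Over all genes tested against D, 7.52% were lower and 3.94% higher. The Hedgehog targets Gli1, a transcription factor (−1.47 ± 0.37), and Hhip, a decoy for the ligand (−4.04 ± 0.37), were among the lower ones, as was Ptch1, the Hedgehog receptor. Igfbp4, Igfbp6 and Sfrp1, binding proteins of insulin-like growth factors and Wnt ligands, were higher. Of 14 collagens 3 were higher in C (Col14a1, Col15a1 and Col8a1) and 9 lower (median −0.99). The Col8a1 call (0.77) was lost without acute replicate 1 (0.68), acute replicate 2 (0.53) or chronic replicate 1 (0.69), and the Col15a1 call (1.36) without acute replicate 2 (1.13). Col14a1, a collagen on the surface of fibrils, averaged 428 ± 105 CPM in C and 164 ± 66.7 in D.

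Transcription factors that mark position in the stroma split in both directions, with 4 of 20 higher and 8 lower in C than in D. The shares over all genes tested against D were 3.94% higher and 7.52% lower. Osr1 (1.94 ± 0.17) and Tcf21 (0.80 ± 0.15), which act in the mesoderm of the urogenital tract and other organs, were higher, as were Tbx18 and Klf4. Tbx18 lay near the counting floor, at 0 to 17.1 CPM in C, where the highest value is 1 UMI, and 0 to 2.91 in D, so no fold is given. The Klf4 call (0.40) was lost without healthy replicate 2 (0.33), acute replicate 1 (0.37), acute replicate 2 (0.27) or chronic replicate 1 (0.26). Foxf1, Foxf2, Hoxa10, Hoxa11, Pitx1, Tbx2, Tbx3 and Tcf4 were lower. Without acute replicate 2 the calls of Hoxa11 (−0.95 to −0.335), Tbx3 (−0.83 to −0.47) and Pitx1 (−0.51 to −0.496) were lost, and that of Pitx1 also without chronic replicate 1 (−0.44). Against A and B none of the 20 passed in edgeR, where 3 and 2 had an unadjusted p below 0.05, and DESeq2 called 1 and 1. Of 11 complement genes, 5 were higher in C than in D, among them Cd55, which shields cells from complement (1.89 ± 0.20), and C2 was lower. Without acute replicate 2 the calls of C2 (−1.04 to −0.66), C1ra (0.67 to 0.55) and Cfb (2.02 to 1.42) were lost, that of C1ra also without healthy replicate 2 (0.55) and that of Cfb also without chronic replicate 1 (1.66).

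The relatives of the genes that name the cells gave no edgeR call against A or B. None of 7 tested genes of arginine and nitric oxide metabolism and none of 5 methyltransferase and amine genes passed against A or B by edgeR. Of the arginine genes 3 and 2, and of the methyltransferase genes 0 and 1, had an unadjusted p below 0.05, and DESeq2 called 1 methyltransferase or amine gene against B. All 7 arginine genes lay lower in C than in A (median −0.53 against −0.12 over all genes). Against B 4 lay lower and 3 higher (median −0.20 against −0.08). No secretin family gene was abundant enough to test. Against D, Nnmt, the nicotinamide N-methyltransferase, was lower (−1.41 ± 0.26, edgeR adjusted p = 0.00023) and Maob, a monoamine oxidase, was higher (1.45 ± 0.41, edgeR adjusted p = 0.016), the latter not without chronic replicate 1 (1.33). Gatm, which uses arginine to start creatine synthesis, had no UMI in C of any of the 5 libraries and 11.6 to 91.2 CPM in D.

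For the response of C cells to injury, the sums of 5 libraries were compared over 3480 genes with edgeR. Because the chronic arm held 1 library, the filter on low counts let in a gene that was high enough in 1 library. Such a gene is tested in the direction that let it in, so its call is no independent evidence of a change. The residual spread had 2 degrees of freedom in C, and edgeR pooled it over all genes (infinite prior degrees of freedom), which it did not do in A, B and D. The chronic arm was 1 library of C cells, so its spread was not measured: the healthy and acute pairs supplied it, chronic replicate 1 was assumed to vary like them, and each chronic value compares that library with the others. The same holds for a condition left with 1 library when another is left out. Chronic replicate 2 gave no C sum, so the fits without it held the same 5 C sums and differed in the TMM factors, which were set over the sums of all classes. Acute and healthy C cells differed in 37 genes (1.06% of those tested), 21 higher (0.603%) and 16 lower (0.46%). The chronic library and healthy C cells differed in 32 genes (0.92%), 22 higher (0.632%) and 10 lower (0.287%). Acute C cells and the chronic library differed in 7 genes (0.201%), 1 higher (0.0287%) and 6 lower (0.172%) in acute. Unadjusted p-values below 0.05 were found for 185 (5.32%), 175 (5.03%) and 124 genes (3.56%), and DESeq2 called 2, 2 and 0. Without chronic replicate 1 the acute count fell to 1 gene (Isg15), without healthy replicate 1 to 9 and without healthy replicate 2 to 11, and without acute replicate 1 it was 61. The chronic count was 8 and 14 without the first and second healthy library. The healthy libraries serve both comparisons, so their values are given side by side and any likeness partly comes from sharing them.

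Interferon response genes were the list with the most rises after acute injury. After acute injury 6 of 24 tested were higher (Isg15, Ifit1, Ifit3, Irf7, Bst2 and Rtp4), with a median log2 difference of 1.40 against 0.05 over all genes. After chronic injury 3 passed (Isg15, Ifit1 and Irf7; median 1.12 against 0.01). Over all genes tested, 0.603% were higher after acute and 0.632% after chronic injury. Unadjusted p-values were below 0.05 for 11 (acute) and 9 (chronic) of the 24, and DESeq2 called 1 and 0. These genes are switched on by interferons through factors that bind a promoter element made of GAAA, any 2 bases and GAAA again.

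The promoters of 4 of these 6 genes held this element within 250 bases before a start site, searched on both strands with overlapping matches counted, in RefSeq promoters of GRCm38.p6. They are shown because their genes rose together, 5′ to 3′ on the gene's strand, with matched letters in capitals. Ifit1 and Ifit3 hold the reverse complement.
Isg15: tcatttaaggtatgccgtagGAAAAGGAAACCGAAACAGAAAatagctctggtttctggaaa
Ifit1: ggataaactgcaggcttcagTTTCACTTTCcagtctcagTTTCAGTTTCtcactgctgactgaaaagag
Ifit3: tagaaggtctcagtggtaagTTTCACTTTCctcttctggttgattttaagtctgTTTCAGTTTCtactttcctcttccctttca
Bst2: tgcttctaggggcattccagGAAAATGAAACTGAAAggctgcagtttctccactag
They lie at chr4:156200855-156200916 (minus strand), chr19:34640765-34640833 (plus), chr19:34583353-34583436 (plus) and chr8:71537567-71537622 (minus). In Isg15, 3 overlapping matches run from 78 to 57 bases before the start. Irf7 held no match in its windows, and Rtp4 was not in the table. Of 15 interferon genes in the table that did not pass, 4 held the element, as did 978 of all 32851 promoters (2.98%). A match is a description of the letters and does not show binding.

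Isg15 encodes a ubiquitin-like protein that is attached to other proteins after interferon. It was at 31.2 and 11.8 CPM in healthy C, from 2 UMIs in each library, at 598 and 882 in acute C and at 245 in chronic C. Both acute values and the chronic one lay above both healthy ones, and 17 of the 35 UMIs of acute replicate 1 were in 1 cell. Acute C cells were higher by 5.35 ± 0.67 on the log2 scale (edgeR adjusted p = 3.6e-12), and the chronic library by 3.73 ± 0.78 (edgeR adjusted p = 0.00055) with the spread taken from the other conditions. The acute difference passed in 14 of 14 alternatives, from 4.56 to 8.91. The chronic one missed the threshold without healthy replicate 1 (4.35) or healthy replicate 2 (2.94). DESeq2 called the acute difference but not the chronic one.

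Ifit1 and Ifit3, which bind foreign RNA, and Irf7, a transcription factor that amplifies the response, also rose. Ifit1 rose from 15.6 and 11.8 CPM to 102.5 and 325 in acute C and 129 in chronic C. Irf7 rose from 0 and 11.8 CPM to 188 and 135 in acute C and 129 in chronic C. The acute log2 differences were 4.14 ± 0.73, 4.56 ± 0.79 and 4.09 ± 0.86 for Ifit1, Ifit3 and Irf7, with edgeR adjusted p of 7e-06, 6.6e-06 and 0.0005. Healthy levels again rest on 0 to 2 UMIs per library. Without healthy replicate 2 all 3 acute calls were lost (3.88 for Ifit1 and 3.75 for Ifit3, and no fold for Irf7, which then had no healthy UMI). Irf7 was also lost without healthy replicate 1 (3.66) or chronic replicate 1 (4.13), and Ifit1 without acute replicate 2 (2.84) or chronic replicate 1 (4.19). The chronic calls of Ifit1 (3.25) and Irf7 (3.85) were lost without healthy replicate 1 (3.44 and 3.44) and without healthy replicate 2 (2.999 for Ifit1), and that of Ifit1 also without acute replicate 2 (3.27). Bst2, which tethers virions (acute 1.74 ± 0.50, edgeR adjusted p = 0.042), and Rtp4 (2.18 ± 0.59, edgeR adjusted p = 0.025) were lost without healthy replicate 1 (2.02 and 2.21), healthy replicate 2 (1.42 and 2.18), acute replicate 2 (0.807 and 1.65) or chronic replicate 1 (1.80 and 2.23), and Bst2 also without chronic replicate 2 (1.78).

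Target genes of p53, the factor that responds to DNA damage, formed the next group. After acute injury 3 of 12 tested were higher (Cdkn1a, Bax and Phlda3; median 1.51) and after chronic injury 3 (Cdkn1a, Mdm2 and Gdf15; median 1.44). Over all genes tested the medians were 0.05 and 0.01, with 0.603% and 0.632% higher. Cdkn1a encodes p21, which halts the cell cycle, and was abundant. It was at 390 and 644 CPM in healthy C, 3963 and 1864 in acute C and 4869 in chronic C, where all 67 cells had a UMI. The conditions did not overlap. Its log2 differences were 2.46 ± 0.51 (edgeR adjusted p = 0.0005) and 3.21 ± 0.58 (edgeR adjusted p = 2.4e-05), and DESeq2 called both as well. The acute call was lost without healthy replicate 1 (2.18), healthy replicate 2 (2.89) or chronic replicate 1 (2.499), and the chronic call without either healthy library (2.96 and 3.64).

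Mdm2, the ligase that degrades p53, was at 15.6 and 35.4 CPM in healthy C, 290 and 75.9 in acute C and 245 in chronic C. Its chronic difference of 3.04 ± 0.72 passed (edgeR adjusted p = 0.0053) and its acute difference of 2.34 ± 0.68 did not (edgeR adjusted p = 0.051). Gdf15, a stress-induced member of the TGF-beta family, was at 15.6 and 5.91 CPM in healthy C, 68.3 and 42.2 in acute C and 187 in chronic C (chronic difference 4.32 ± 0.95, edgeR adjusted p = 0.0017). Gdf15 entered the fit only through the chronic library, so its call cannot decide whether it rose. Bax, which opens mitochondria in cell death, was at 187 and 224 CPM in healthy C, 803 and 823 in acute C and 611 in chronic C, and passed in the acute comparison only (1.96 ± 0.50, edgeR adjusted p = 0.012; chronic 1.55 ± 0.57, edgeR adjusted p = 0.35). The chronic calls of Mdm2 and Gdf15 were lost without healthy replicate 2 (3.91 and 3.53), and that of Mdm2 without healthy replicate 1 (2.81). The acute call of Bax was lost without healthy replicate 1 (1.88), healthy replicate 2 (2.12), acute replicate 2 (1.90) or chronic replicate 1 (2.01), and that of Phlda3 (1.81 ± 0.50), an inhibitor of Akt signalling, without the same libraries (1.76, 1.89, 1.73 and 1.86) or chronic replicate 2 (1.83).

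Of 18 listed detoxification genes edgeR called Gpx3 alone, in each comparison, while 3 (acute) and 4 (chronic) had an unadjusted p below 0.05 and DESeq2 called 0. Rises made up 0.603% (acute) and 0.632% (chronic) of all genes tested. Gpx3, a secreted glutathione peroxidase, was at 140 and 159 CPM in healthy C, 735 and 690 in acute C and 806 in chronic C. The log2 differences were 2.22 ± 0.51 and 2.40 ± 0.58, with edgeR adjusted p of 0.0028 and 0.0065. The acute call of Gpx3 was also lost with DESeq2 (2.21), without called doublets (2.07) and among cells over 3826 UMIs (1.21). Outside that list, Dcxr, a reductase of dicarbonyls, went from 31.2 and 59.1 CPM to 342 and 416 in acute C and 374 in chronic C (2.94 ± 0.57 and 2.90 ± 0.63). Ephx1, the microsomal epoxide hydrolase, passed after acute injury (2.98 ± 0.72). In each of these genes the healthy libraries lay below the injured ones. The acute calls of Gpx3, Dcxr and Ephx1 were lost without healthy replicate 1 (2.17, 2.71 and 3.31), healthy replicate 2 (2.33, 3.59 and 2.49) or chronic replicate 1 (2.27, 2.99 and 3.02), and that of Ephx1 without acute replicate 2 (3.24). The chronic calls of Gpx3 and Dcxr were lost without healthy replicate 1 (2.38 and 2.70) or healthy replicate 2 (2.51 and 3.56).

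Further named rises were Cryab, a small heat shock protein (acute 2.63 ± 0.63, chronic 2.57 ± 0.72), Serpine2, a protease inhibitor (2.36 ± 0.54 and 2.503 ± 0.60), and Anxa8, an annexin that binds membranes (acute 3.83 ± 0.77). Gm26870, a predicted noncoding gene, had no UMI in either healthy C library. It was at 34.2 and 75.9 CPM in acute C and 345 in chronic C, at least 1.71-fold and at least 10.7-fold higher against a floor of 3 UMIs per library. The acute calls of Cryab and Anxa8 were lost without healthy replicate 2 (1.68 and 2.66), acute replicate 2 (1.61 and 3.77) or chronic replicate 1 (2.69 and 3.88). That of Serpine2 was lost without healthy replicate 1 (2.91), healthy replicate 2 (1.78) or chronic replicate 1 (2.42), and that of Gm26870 without either healthy library or acute replicate 2, with no fold given because healthy C was at 0. The chronic calls of Cryab and Serpine2 were lost without healthy replicate 1 (3.46 and 3.07) or healthy replicate 2 (1.63 and 1.92), and that of Cryab also without chronic replicate 2 (2.55).

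**Figure D4:**
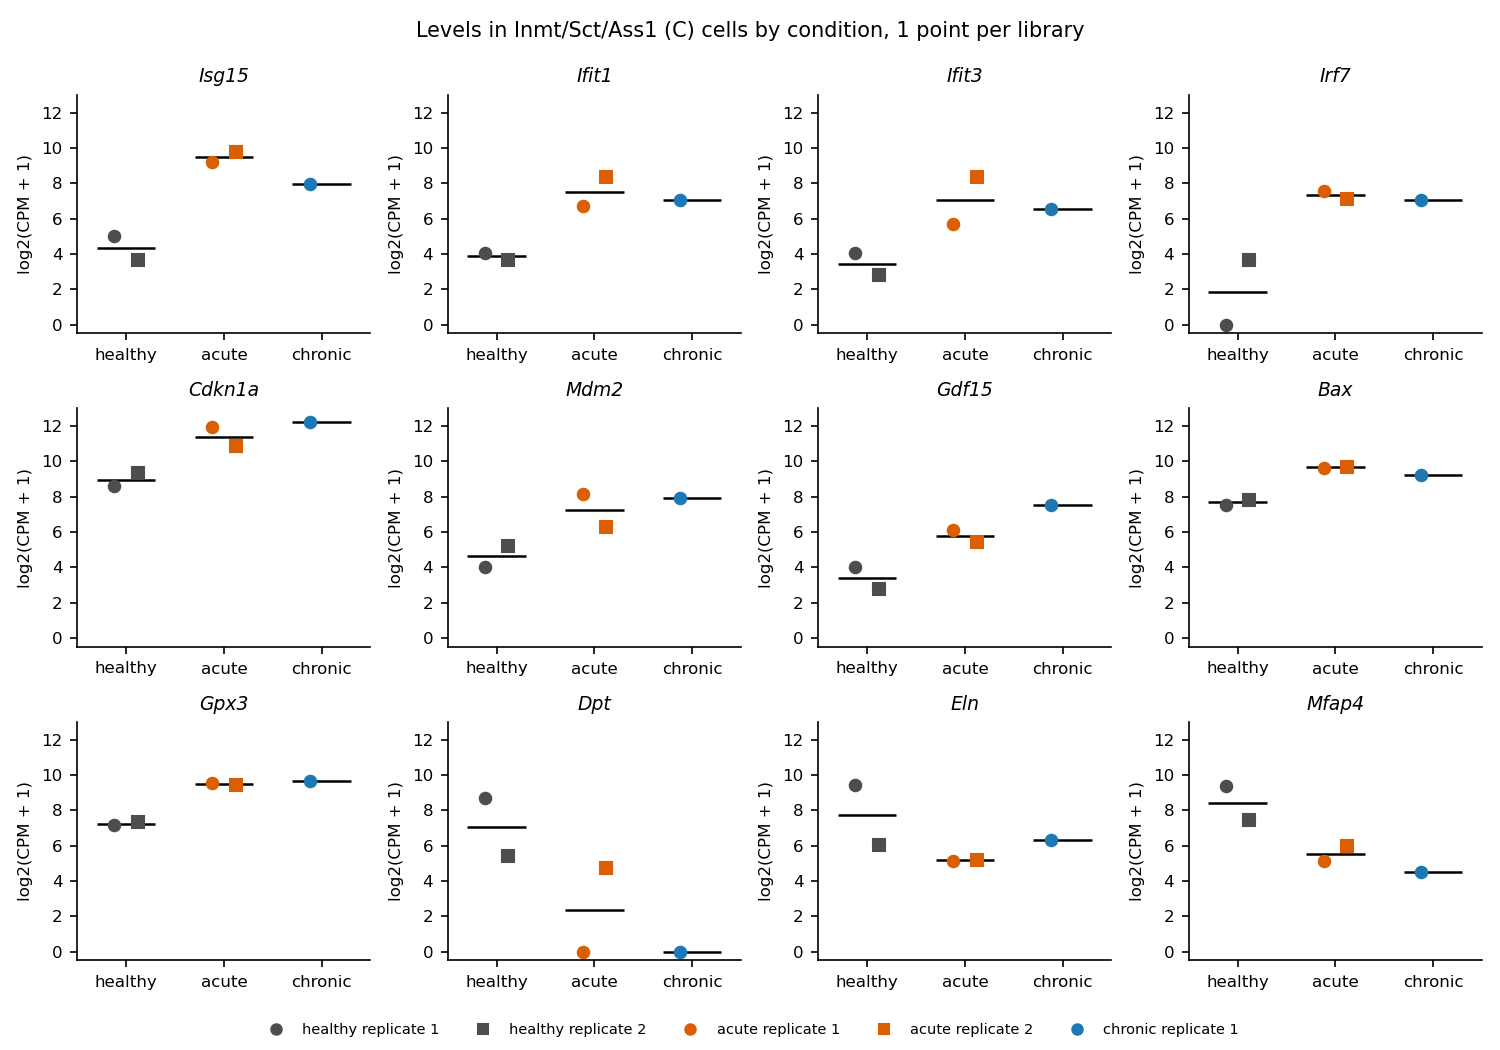
Levels of 12 genes in C cells as log2(CPM + 1), with 1 point per library and bars for the condition means. Chronic replicate 2 is missing because it held 2 C cells. Interferon and p53 genes of both acute libraries and of chronic replicate 1 lie above both healthy libraries, and Dpt, Eln and Mfap4 are highest in healthy replicate 1.

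Few matrix genes passed after injury, and the acute calls of Eln, Mfap4, Bgn and Loxl1 were lost without healthy replicate 1. Of 25 matrix glycoproteins and proteoglycans, 3 were lower after acute injury (Eln, Mfap4 and Bgn; median −0.43 against 0.05 over all genes) and Mfap4 after chronic injury. Falls made up 0.46% (acute) and 0.287% (chronic) of all genes tested. None of 14 collagens passed after acute injury by edgeR (median −0.54), where 2 had an unadjusted p below 0.05 and DESeq2 called 0. Col4a5 and Col6a3 passed after chronic injury. Col4a5 had no UMI in the C cells of chronic replicate 1, at least 5.62-fold lower than healthy C against the floor of 3 UMIs. Both calls were lost without healthy replicate 1 (−2.14 for Col6a3), that of Col6a3 also without chronic replicate 2 (−3.19), and that of Col4a5 also without healthy replicate 2 or acute replicate 2. Mfap4, a microfibril protein, was at 671 and 171 CPM in healthy C, 34.2 and 61.2 in acute C and 21.6 in chronic C. It fell by 2.83 after acute injury (SE 0.53, edgeR adjusted p = 3.3e-05) and by 4.14 after chronic injury (SE 0.81, edgeR adjusted p = 0.00019). The acute call was lost without chronic replicate 1 (−2.76), and healthy replicate 1, of 17 cells, weighed on each value: without it the differences were −1.61 and −2.91 and missed the threshold.

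Eln, which encodes elastin, shows this most. It was at 686 and 65.0 CPM in healthy C, 34.2 and 35.9 in acute C and 79.1 in chronic C. Its acute difference was −3.23 ± 0.57 (edgeR adjusted p = 1e-05), but in healthy replicate 1 the 44 UMIs came from 5 cells and 21 from a single cell. Without that library the difference was −0.83 and did not pass. Dpt, dermatopontin, a protein that binds decorin and collagen, had 27 and 7 UMIs in the healthy libraries (421 and 41.3 CPM), 0 and 12 in the acute and 0 in the chronic library. It was called in each comparison (acute −3.21 ± 0.67, edgeR adjusted p = 0.0005), but it entered the fit only through healthy replicate 1, where it was highest. Those calls therefore cannot decide whether Dpt fell. Chronic C was at least 10.7-fold lower against the floor of 3 UMIs. Without healthy replicate 1 Dpt was too low to be tested.

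Loxl1, a lysyl oxidase that crosslinks elastin, was at 374 and 218.5 CPM in healthy C, 34.2 and 73.8 in acute C and 173 in chronic C (acute −2.15 ± 0.52, edgeR adjusted p = 0.0052; chronic −0.72 ± 0.59, edgeR adjusted p = 1). Bgn, the proteoglycan biglycan, was at 3338 and 2079 CPM in healthy C, 495 and 1040 in acute C and 1820 in chronic C (acute −1.77 ± 0.49, edgeR adjusted p = 0.03). Among cells over 3826 UMIs the Bgn difference was −0.37 and did not pass. Loxl1 and Bgn missed the threshold without healthy replicate 1 (−1.75 and −1.38), acute replicate 1 (−1.87 and −1.30) or chronic replicate 1 (−2.09 and −1.71). Loxl1 also missed it without acute replicate 2 (−3.04) and Bgn without healthy replicate 2 (−2.09) or chronic replicate 2 (−1.72).

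Cytokines and immediate-early genes gave few calls. Of all genes tested, 0.603% rose and 0.46% fell after acute injury, and 0.632% and 0.287% after chronic injury. Of 10 chemokines and cytokines, Il6 was lower after acute injury (468, 112, 154, 10.5 and 144 CPM across the 5 libraries; −2.65 ± 0.61, edgeR adjusted p = 0.0028). That call was lost without healthy replicate 1 (−1.22), acute replicate 2 (−0.786) or chronic replicate 1 (−2.56), and the conditions overlapped. After chronic injury Ccl2, a monocyte attractant, was higher (2.97 ± 0.77, edgeR adjusted p = 0.017). Cxcl10, an interferon-induced chemokine, had no UMI in chronic replicate 1, at least 10.0-fold lower than healthy C, while 1 of the 2 C cells of chronic replicate 2, which were not in the fit, held 2 UMIs. It varied within conditions, at 421 and 11.8 CPM in healthy and 256 and 4.22 in acute C. Of 21 immediate-early genes Klf2 alone passed after acute injury, with 686 and 644 CPM in healthy, 273 and 135 in acute and 942 in chronic C (−1.83 ± 0.51, edgeR adjusted p = 0.03). The difference was negative for 18 of the 21 (median −0.60 against 0.05 over all genes), 5 had an unadjusted p below 0.05 and DESeq2 called 0. Acute replicate 2 stood apart in every class: the list summed to 9613 CPM in its A cells, 12441 in B, 9632.5 in C and 12564 in D, against 19341 to 37437 CPM in the sums of the other libraries. Such genes also respond to tissue dissociation, whose part in these values was not tested. The Ccl2 call was lost without either healthy library (3.16 and 2.71) and the Cxcl10 call without healthy replicate 1. Klf2 missed the threshold without either healthy library (−1.75 and −1.86), acute replicate 2 (−1.30), chronic replicate 1 (−1.78) or chronic replicate 2 (−1.80), passed in 3 of 14 alternatives in all, and was at −0.335 among cells over 3826 UMIs.

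The niche ligands did not pass after injury. None of 7 tested was called by edgeR or DESeq2 in either comparison, and 0 had an unadjusted p below 0.05 (median −0.37 acute and −0.02 chronic), and Mdk, at 291 CPM in acute replicate 2, was between 125 and 171 CPM in the other libraries. Apoe, a lipid carrier, was lower after chronic injury (2184 and 1618 CPM in healthy C, 374 in chronic C; −2.34 ± 0.65, edgeR adjusted p = 0.035), though 70 of its 140 UMIs in healthy replicate 1 came from 1 cell. Without healthy replicate 1 (−2.06), healthy replicate 2 (−2.54) or chronic replicate 2 (−2.34) that call was lost.

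Some calls followed single cells or single libraries. Class II antigen presentation genes rose after chronic injury, with Cd74 at 31.2 and 112 CPM in healthy, 51.2 and 348 in acute and 1180 in chronic C (3.83 ± 0.58, edgeR adjusted p = 6.1e-08). In chronic replicate 1, 158 of 164 Cd74 UMIs and 67 of 74 H2-Ab1 UMIs lay in 2 cells called doublets. Without called doublets the chronic Cd74 difference was −1.05 and did not pass. Hbb-bs and Hba-a1, the haemoglobin genes, were lower in acute C, at least 11.0-fold and at least 6.39-fold. C cells of healthy replicate 1 had 1 and 2 UMIs of them, so both values rest on healthy replicate 2. Both genes entered the fit only through that library, so their calls cannot decide whether they fell. In healthy replicate 2, 79 of 105 Hbb-bs UMIs were in 1 C cell, and over all its cells this library had 148 CPM of Hbb-bs against 0.234 to 23.1 in the injured libraries. All 9 urothelial markers tested also lay lower in acute than in healthy C (median −1.03 against 0.05 over all genes). Neither edgeR nor DESeq2 called any, and 4 had an unadjusted p below 0.05.

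Sept2 and Tonsl were lower in acute C (−3.97 ± 0.85 and −2.75 ± 0.73), but over all cells of acute replicate 2 they were at 1.89 and 0.900 CPM, against 49.4 to 60.9 and 60.9 to 134 in the other 5 libraries. Without acute replicate 2 the differences in C were −1.68 and −0.46 and missed the threshold, as they did without healthy replicate 1 (−3.83 and −2.41), healthy replicate 2 (−3.997 and −2.99) or chronic replicate 1 (−3.80 and −2.69).

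The A, B and D cells of the same libraries gave fewer calls. Acute and healthy cells differed in 2 of 10340 genes tested in A and 3 of 6381 in B, all higher, and in 3 of 8801 in D, all lower. The test was the same, but its prior degrees of freedom were 6.04 in A, 10.4 in B and 6.2 in D, against infinite in C. The counts therefore do not compare the strength of the response between classes. The acute log2 difference of Isg15 was 3.25 ± 0.87 in A, 3.49 ± 0.71 in B and 2.69 ± 0.74 in D, and none of these passed. For Cdkn1a it was 2.23 ± 0.36, 1.69 ± 0.41 and 1.22 ± 0.44, and none passed. Ifit1 passed in B (4.19 ± 0.66, edgeR adjusted p = 0.045). A call in C and not in A, B or D does not show that C differs from them, which the interaction of class and condition tests directly.

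By that test edgeR called no gene (0.0% of 7695) for an acute effect in C different from the mean effect in A, B and D. How many true differences this test can recover was not simulated, so the lack of calls does not show that the effects were alike. DESeq2 also called 0, while 327 genes had an unadjusted p below 0.05 by edgeR (4.25%). The difference was 1.72 ± 0.75 for Isg15 and 0.65 ± 0.26 for Cdkn1a, each with an edgeR adjusted p of 1. For Mfap4, which fell by 2.83 in C and measured −1.24 ± 0.54 in A, the difference was −2.72 ± 0.69 (edgeR adjusted p = 0.62). After chronic injury 3 genes passed (0.039%), which were Cd74, H2-Aa and H2-Ab1. Most of their UMIs in C of chronic replicate 1 lay in called doublets. At an unadjusted p below 0.05 there were 375 (4.87%), and DESeq2 called 0.

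**Figure D5:**
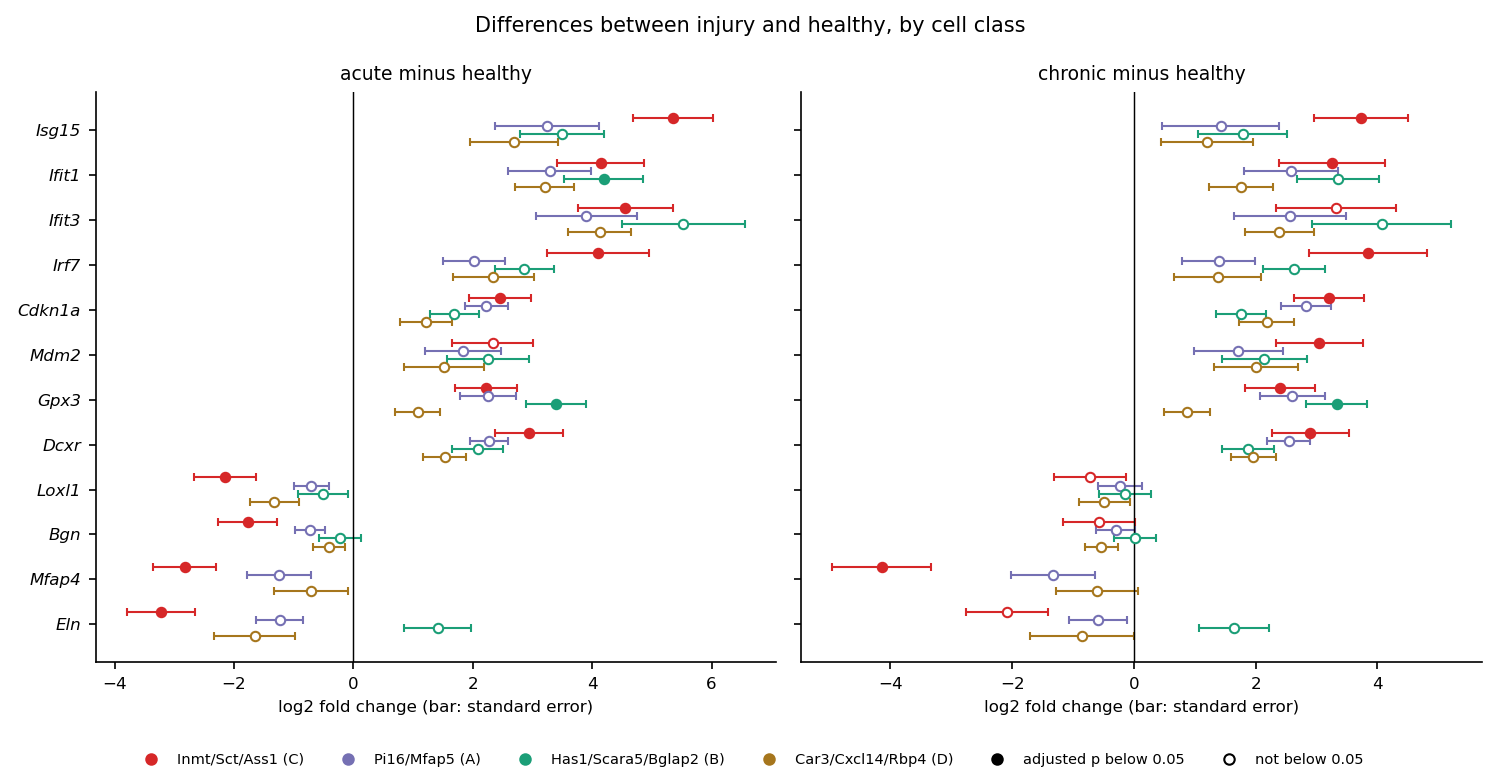
Log2 differences from healthy (points) with standard errors (bars) for 12 genes in C, A, B and D cells, acute at the left and chronic at the right. Filled points have an edgeR adjusted p below 0.05. Interferon, p53 and detoxification genes lie above 0 in all 4 classes, while Eln lies below 0 in C, A and D and above 0 in B.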

How the data were processed

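Bladder mucosa of 6 libraries (2 healthy, 2 acute, 2 chronic) was profiled with droplet-based 3' sequencing. The authors made UMI counts per gene and cell with Cell Ranger on mm10 and deposited them as raw counts, whole numbers without normalization, in 1 table per library. The table of healthy replicate 1 ended in 1 incomplete line. Cells with over 500 genes were gated and classed as described above. The members and lists were chosen with earlier results of these data known, and genes are named by a rule on size, call and list membership unless said otherwise.

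For each class with 10 cells or more in a library, UMIs were added up over the 14347 genes that every table listed, leaving out mitochondrial and ribosomal genes. edgeR 4.0.16 (TMM, filterByExpr, quasi-likelihood test) in R 4.3.3 gave Benjamini-Hochberg adjusted p-values over the genes tested, without those of the rule. Classes were compared with library as block, conditions without it. The SE given with an edgeR log2 difference is its absolute value divided by the square root of the test's F value. It was thus derived from the test and is not a direct measure of the spread between libraries. A gene named for the size of its change needed a mean of at least 50 CPM in the higher group, and members of the lists did not. Depth in C was 48808 to 485108 UMIs per library, where 1 UMI is worth 2.11 to 17.1 CPM. Doublets were scored with Scrublet in scanpy 1.11.5 and called at 0.8% per 1000 cells.

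The alternatives were DESeq2 1.42.0, no filter on low counts, a C sum of at least 3, at least 20 cells, no called doublets, over 1000 genes and under 5% mitochondrial UMIs, cells thinned to 2000 UMIs, a replicate block, each library left out and, chosen after seeing the data, genes of the 4 fuller tables and cells over 3826 UMIs. In simulated data with genes changed 4-fold or 8-fold, edgeR recovered 40.0% and 75.0% in the acute comparison, with 0 and 5 unchanged genes called. Between C and A it recovered 84.5% and 93.0% with 12 and 20 unchanged genes called (6.63% and 9.71% of the calls), and between C and D 85.5% and 95.5% with 7 and 25 (3.93% and 11.6%). The simulation gave every gene the same spread, a common dispersion of 0.0761, against 0.104 in the condition fit of C. It held no outlying cells or doublets, so recovery and false calls in the real data can be worse. Positions are from GENCODE M21.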

Additional observations from a re-analysis of the deposited data

Results flagged for a closer look

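The chronic change of 3 class II antigen presentation genes in C cells exceeded the mean chronic change in A, B and D cells, by 5.23 for Cd74 (edgeR adjusted p = 0.019), 5.46 for H2-Aa (edgeR adjusted p = 0.014) and 5.81 for H2-Ab1 (edgeR adjusted p = 0.014) on the log2 scale. These genes are used by dendritic cells, macrophages and B cells, and the test was the interaction of class and condition over libraries. In chronic replicate 1, 54 of 55 H2-Aa UMIs and 31 of 32 H2-Eb1 UMIs lay in the 2 C cells called doublets, and in acute replicate 2, 151 of 165 Cd74 UMIs lay in the 16 called doublets. Cd74 without called doublets stood at 30.7 and 77.9 CPM in the healthy libraries, 43.7 and 22.9 in the acute libraries and 35.7 in chronic replicate 1. H2-Aa then stood at 0 and 32.8, 0 and 8.19, and 5.95 CPM in the same order. H2-Ab1 stood at 0 and 16.4, 0 and 29.5, and 41.7 CPM, so it stayed highest in chronic replicate 1. After acute injury edgeR also called H2-Ab1 higher in C, and 74 of its 92 UMIs in acute replicate 2 lay in called doublets.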

How the results depend on the processing

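Counts of genes called between acute and healthy C cells (37) became 2 with DESeq2, 69 with a replicate block, 19 without called doublets and 11 among cells over 3826 UMIs, and ranged from 1 to 61 when 1 library was left out. The lowest value came without chronic replicate 1 and the highest without acute replicate 1. Between chronic and healthy (32) they became 2 with DESeq2, 62 with the block, 20 at a C sum of at least 3 and 9 without called doublets, with 8 to 37 when 1 library was left out. Between acute and chronic (7) they were 0 with DESeq2, 4 without the filter, 27 with the block, 0 without doublets and 2 over the 4 fuller tables, with 1 to 32 when 1 library was left out. Replicate 1 of healthy and acute deviated together with r = 0.202 over 3130 genes, so 1 pair gave a value and the numbers were not shown to pair the samples. The labels give no processing batch, so a block on batch could not be fitted.

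Against A (68) there were 148 genes without the filter and 33 with at least 20 cells (44 to 85 on leaving out 1 library), against B (42) 129, 18 and, among cells over 3826 UMIs, 10 (21 to 38), and against D (882) 504 among cells over 3826 UMIs (506 to 893, lowest without acute replicate 2). Genes differing from all 3 classes (5) were 21 without the filter, 1 with at least 20 cells and 3 among the deeper cells (1 to 6). The interaction gave 11 genes instead of 0 without the filter for acute (0 to 10), and 0 with DESeq2, 9 without the filter and 0 with at least 20 cells instead of 3 for chronic (1 to 11).

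The chronic difference of Cd74 turned to −1.052 without called doublets. The chronic difference in the share of C cells was −0.183 points as a percentage of all cells. On leaving out 1 library, the differences from healthy in the share of A to D cells ranged from −0.4228 to 2.834 points (acute) and from −1.065 to 2.777 points (chronic). With at least 20 cells no condition test was possible in C, and chronic could not be compared without chronic replicate 1.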
